A study of Drosophila melanogaster with 27 samples.

Results

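The Activin branch of TGF-beta signaling is represented here by 6 of the 16257 genes counted in larval ovaries of *D. melanogaster*: the ligand genes *daw*, *Actbeta*, *myo* and *mav*, the type I receptor gene *babo* and the Smad gene *Smox*. They were taken by FlyBase identifier. Activin-type ligands are secreted dimers that bring a type II receptor (Put or Wit) together with the type I receptor Babo, which phosphorylates Smox, the Smad2 homolog; Smox then enters the nucleus with the co-Smad Medea. In the larval ovary this branch is known for its role in the proliferation and differentiation of niche precursors, the somatic cells that build terminal filaments. The *babo* gene makes receptor isoforms with different ligand preferences, and the counts do not separate them.

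RNA was sequenced from whole ovaries, sorted germ cells and sorted somatic cells at 72, 96 and 120 h after egg laying (AEL), with 3 biological replicates in each of the 9 groups. Larvae at 72 and 96 h AEL were of the III instar, and those at 120 h AEL are labelled as white pupae. Whole ovaries came from the Oregon R strain, germ cells from nos:GAl4>GFP animals and somatic cells from bab:Gal4>GFP animals. Each replicate pooled many ovaries. For sorting, UAS:Green Stinger females, which supply a nuclear GFP, were crossed to males of either driver line, and dissociated cells were collected by their GFP. The driver line for germ cells also carries UAS-Dcr-2, while the *bab* driver is an insertion in the *bab1* gene kept over the balancer TM6B, so that the sorted tissue and the genotype of the driver parent cannot be told apart. A gate on *bab* expression does not isolate a single somatic cell type.

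Libraries held 9680615 to 72875881 expected counts, the fewest in the germ library of 96 h replicate 1. Values are expected counts relative to library size (CPM) after TMM scaling, separately for the 9 whole ovary libraries and for the 18 sorted libraries, and a gene was called when its Benjamini-Hochberg adjusted p over all genes was under 0.01 in edgeR's quasi-likelihood test. Fold changes have the later stage over the earlier one, or germ over somatic cells, and their errors are standard errors. The summed level of 8 germ cell markers was 2538 to 5542 CPM in germ libraries and 13.2 to 52.9 CPM in somatic libraries. The summed level of 8 somatic markers was less clean, at 93.7 to 1546 CPM in germ libraries and 1970 to 2771 CPM in somatic libraries, and the germ libraries of 96 h replicate 1 (1351 CPM) and 120 h replicate 4 (1546 CPM) were the highest. In bulk samples, fewer cells of a type and less RNA per cell cannot be told apart.

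The *babo* gene lies on chromosome 2R at 8952339 to 8962796 on the plus strand of the release 6 assembly (BDGP6), and *Smox* on chromosome X at 8137041 to 8142279 on the minus strand. *Smox* shares 6 exonic bases with *CG2120* on the other strand. Of the ligand genes, *daw* lies on 2L at 2805261 to 2812376 on the plus strand, while the others are all on the small chromosome 4 and on its minus strand. These are *mav* at 623219 to 626031, *myo* at 690686 to 696055 and *Actbeta* at 1077331 to 1084796.

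Per kilobase of merged exons, the scale on which genes can be set beside each other, *Smox* and *babo* were abundant throughout, *myo* was the ligand gene with the highest level, and *Actbeta* had the lowest level in somatic cells and in whole ovaries. At 120 h AEL *Smox* averaged 64.4 ± 5.58 CPM per kb in germ cells and 68.5 ± 8.86 CPM per kb in somatic cells, and *babo* averaged 35.3 ± 0.518 CPM per kb in germ cells and 64.9 ± 13.0 CPM per kb in somatic cells (SD, n = 3 each). *myo* averaged 23.5 ± 7.78 CPM per kb in germ cells and 66.5 ± 12.9 CPM per kb in somatic cells at that stage. The *myo* share of the summed level per kb of the ligand genes was 82.6%, 82.0% and 80.6% in germ cells, and 79.4%, 82.9% and 86.4% in somatic cells, at 72, 96 and 120 h AEL. Whole ovaries had another makeup at the early stage: *daw* made up 29.8 ± 9.14% of the ligand sum per kb at 72 h, 15.6 ± 12.7% at 96 h and 2.17 ± 0.970% at 120 h AEL (SD, n = 3 each). In somatic cells the *daw* share was 7.80 ± 5.97%, 2.09 ± 0.379% and 1.20 ± 0.117% at these stages.

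**Figure D1:**
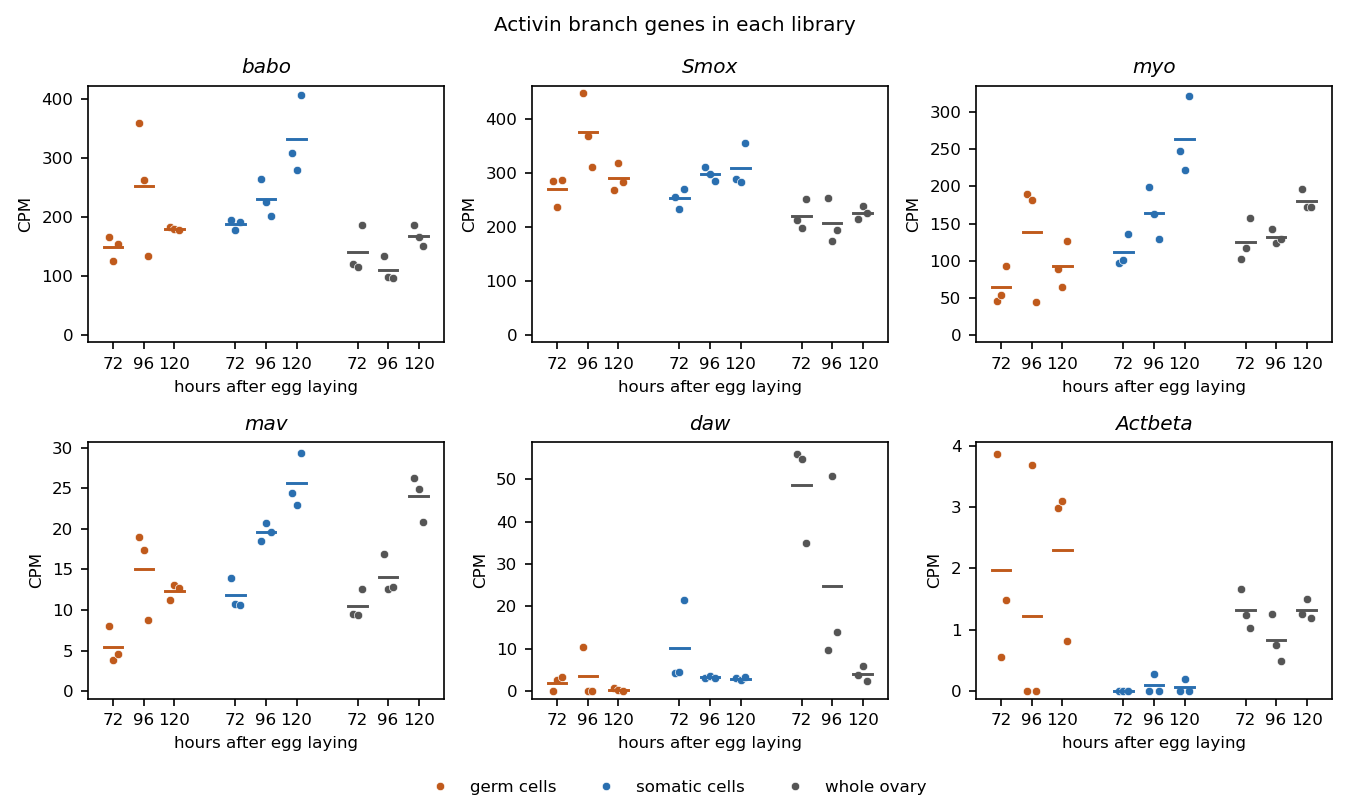
CPM (vertical axis, linear) of the 6 genes in each library against hours after egg laying, in germ cells, somatic cells and whole ovaries; points are libraries and bars are means of 3, with whole ovaries scaled separately. Somatic *babo*, *myo* and *mav* are highest at 120 h, *daw* is highest in whole ovaries at 72 h, and *Actbeta* is at 0 in most somatic libraries.

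Between stages, 3 of the 5 genes tested were called in somatic cells from 72 to 120 h AEL, where *babo*, *myo* and *mav* rose, against 23.0% of all 9931 genes called (11.7% higher and 11.3% lower). DESeq2 called the same 3, at a background of 30.4%. *Actbeta* did not pass the filter on low counts there. Their median log2 fold change was 0.83, and that of all genes was 0.02. In whole ovaries at 120 h against 72 h AEL, *mav* rose and *daw* fell, which is 2 of 6 genes against 21.9% of all 10060 genes (8.39% higher and 13.5% lower), near the background. DESeq2 called 3, *myo* in addition, at a background of 29.0%. No member was called between neighbouring stages by edgeR. In whole ovaries at 96 h against 72 h this was 0 of 6 at a background of 0.994%, with 0 at an unadjusted p under 0.05 and 0 called by DESeq2 (6.32% of all genes). In whole ovaries at 120 h against 96 h it was 0 of 6 at a background of 14.8%, with 4 at an unadjusted p under 0.05 and 3 called by DESeq2 (*babo*, *daw* and *mav*, at 26.3% of all genes). In somatic cells at 96 h against 72 h it was 0 of 5 at a background of 1.90%, with 3 at an unadjusted p under 0.05 and 0 called by DESeq2 (8.06% of all genes). In somatic cells at 120 h against 96 h it was 0 of 5 at a background of 6.56%, with 2 at an unadjusted p under 0.05 and 1 called by DESeq2 (*myo*, at 16.3% of all genes).

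Without regard to tests, the groups of 3 libraries did not overlap for 1, 4 and 3 of 6 genes in whole ovaries at 96 h against 72 h, 120 h against 96 h and 120 h against 72 h, where 28.3%, 56.9% and 46.3% of all genes did not overlap. In somatic cells it was 4, 3 and 5 of 5 genes against 26.4%, 43.8% and 51.5%, and in germ cells 2, 0 and 2 of 6 genes against 18.5%, 18.3% and 26.7%.

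Germ cells gave no calls in any gene between stages, so that the background was 0% in each comparison by edgeR, against 4.99%, 2.12% and 1.14% by DESeq2 for 96 h against 72 h, 120 h against 96 h and 120 h against 72 h. Of the 6 genes, edgeR and DESeq2 both called 0 in each comparison, and 3, 0 and 0 had an unadjusted p under 0.05. The biological coefficient of variation common to all genes was 0.842 in the germ libraries and 0.516 in the somatic libraries. The standard errors of the members' changes were 0.20 to 2.93 in germ cells and 0.13 to 0.61 in somatic cells, so that a missing call in germ cells does not show an unchanged level.

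**Figure D2:**
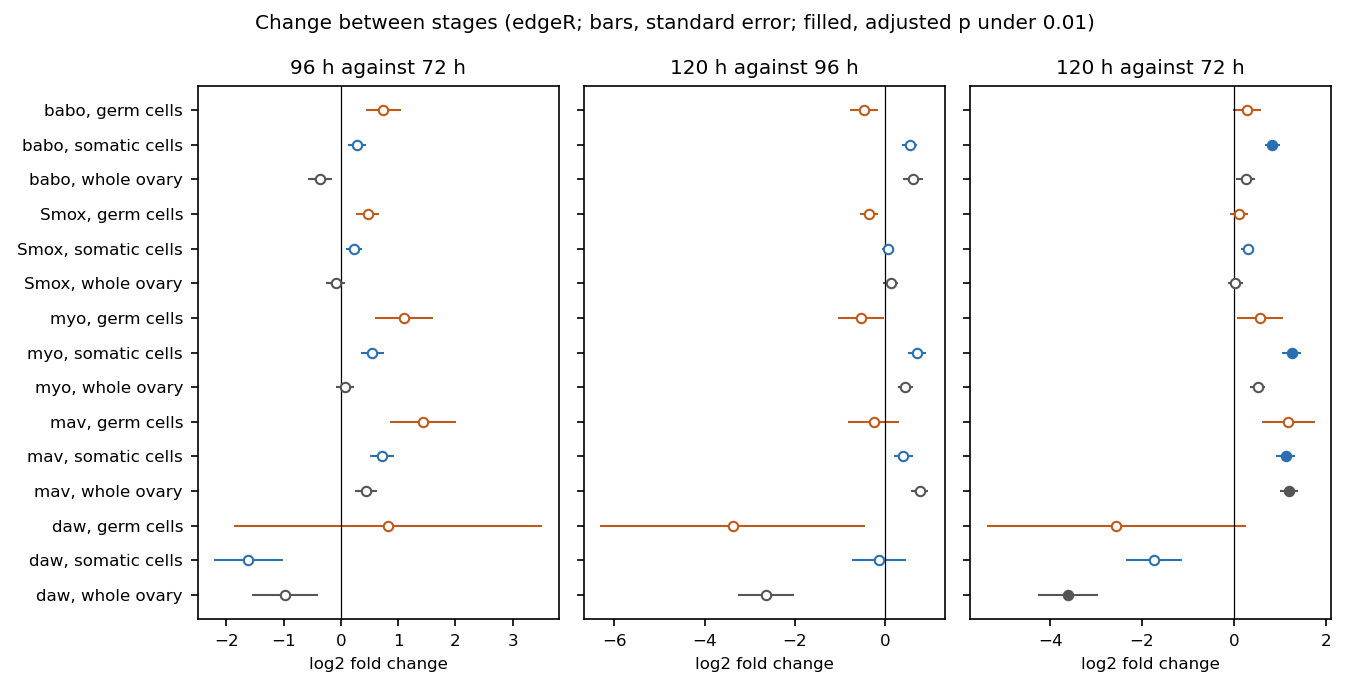
Log2 fold change between stages (horizontal axis) of 5 genes in germ cells, somatic cells and whole ovaries, later over earlier stage, from edgeR; bars are standard errors and filled points have an adjusted p under 0.01. The filled points are somatic *babo*, *myo* and *mav* and whole ovary *mav* and *daw*, all at 120 h against 72 h, and *Actbeta*, not tested in somatic cells, is not drawn.

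The ligand gene *daw* (dawdle) encodes an Activin-type ligand known in the fly to be made in fat body, muscle and glia and to act on sugar metabolism and at the neuromuscular junction. In whole ovaries it had 56.0, 54.8 and 35.0 CPM at 72 h, 9.69, 50.8 and 13.9 CPM at 96 h, and 3.79, 5.81 and 2.30 CPM at 120 h AEL. The 120 h libraries were below all others, while at 96 h replicate 2 stood at the level of the 72 h libraries. It fell by 3.61 ± 0.65 on the log2 scale in whole ovaries at 120 h against 72 h AEL (adjusted p = 0.00251). Left without replicate 1 or replicate 3 of 120 h, the comparison gave adjusted p of 0.0151 and 0.0143 with log2 fold changes of -3.58 and -3.32. At 120 h against 96 h the log2 fold change was -2.64 ± 0.63 (adjusted p = 0.0133, not called). It was called without replicate 1 of 96 h (-3.03, adjusted p = 0.00655).

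Sorted cells had little *daw*. Germ cells had 0, 2.51 and 3.41 CPM at 72 h, 10.5, 0 and 0 CPM at 96 h, and 0.718, 0.268 and 0 CPM at 120 h AEL. Somatic cells had 4.21, 4.57 and 21.4 CPM at 72 h, 3.14, 3.64 and 3.16 CPM at 96 h, and 3.0, 2.69 and 3.22 CPM at 120 h AEL. Most sorted libraries thus lay under 5 CPM, with 1 higher library in each cell type. Between germ and somatic cells the log2 fold change over all stages was -1.81 ± 1.11 (adjusted p = 0.213). It became -5.11 (adjusted p = 0.00226) without the germ library of 96 h replicate 1, which alone held 10.5 CPM. That library had the fewest expected counts of all, and its 10.5 CPM were 85 counts. The mean of whole ovaries was 4.82 times the higher of the sorted means at 72 h, 7.10 times at 96 h and 1.34 times at 120 h AEL, with the tables scaled separately. Whole ovaries also differed from sorted cells in strain and in not being dissociated. In somatic cells the change at 120 h against 72 h was -1.75 ± 0.61 (adjusted p = 0.0408, not called).

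Some markers of tissues outside the ovary, though not all, were ordered like *daw* in whole ovaries. The fat body marker sum was higher in every whole ovary library than in all sorted libraries. At 72 and 96 h this also held for the muscle and hemocyte marker sums. The neuron and glia marker sum of whole ovaries (24.7 to 38.3 CPM) lay within the range of the germ libraries (15.9 to 86.7 CPM). The summed level of 6 muscle markers was 205 to 1026 CPM at 72 h, 118 to 516 CPM at 96 h and 7.58 to 31.9 CPM at 120 h AEL, and that of 5 hemocyte markers was 301 to 665, 396 to 1400 and 22.7 to 34.7 CPM. Of the hemocyte markers, Hml, PPO1 and PPO2 were lower at 120 h than at 72 h. NimC1 (8.06 to 11.8 CPM at 72 h and 7.80 to 10.1 CPM at 120 h) overlapped between these stages. So did eater (3.86 to 8.12 and 3.74 to 4.82 CPM). The sum of 7 fat body markers was 18191 to 24681, 27857 to 69670 and 5533 to 10097 CPM at 72, 96 and 120 h. This sum and the hemocyte sum were not lower at 96 h than at 72 h. The mean of *daw* was lower at 96 h (24.8 CPM against 48.6 CPM), although its libraries overlapped and the change was not called. Within the fat body list the lipoprotein genes apolpp (14682 to 17131, 2426 to 7193 and 104 to 210.4 CPM) and Apoltp had the order of *daw*. In contrast, Fbp1 was lowest at 72 h (0.336 to 0.420 CPM) and highest at 120 h (3783 to 7647 CPM), and Lsp2, Lsp1beta, Lsp1gamma and Fbp2 were highest at 96 h. The sums of 4 trachea markers (6.68 to 98.1, 5.20 to 9.95 and 14.4 to 56.0 CPM) and of 5 neuron and glia markers (24.7 to 32.7, 25.0 to 36.1 and 28.4 to 38.3 CPM) did not have the order of *daw*. Most of the neuron and glia sum was elav (19.9 to 33.0 CPM). At low levels, repo was lower at 120 h (0.0765 to 0.395 CPM) than at 72 h (0.532 to 1.45 CPM). So were brp (0.132 to 0.268 against 0.470 to 1.20 CPM) and nSyb (0.344 to 0.711 against 0.939 to 2.11 CPM). In contrast, Syt1 was higher at 120 h (1.61 to 4.36 against 0.711 to 1.57 CPM). Replicate 2 of 96 h, with the highest *daw* of its stage, also had the highest sum of each of these 5 lists at 96 h. In somatic libraries the fat body sum was 2.02 to 9.39 CPM, the muscle sum 3.04 to 22.7 CPM and the hemocyte sum 0 to 0.985 CPM, with Hml, NimC1, eater, PPO1 and PPO2 all at 0 in 4 of 9. In germ libraries the fat body sum was 2941 CPM in 96 h replicate 1, the library with 10.5 CPM of *daw*, and 16.3 to 60.9 CPM in the others. The part of these tissues in the *daw* values was not tested.

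*Actbeta* encodes Activin-beta, a ligand known mainly from neurons. It was the only one of the ligand genes called higher in germ cells. Germ cells had 3.86, 0.551 and 1.48 CPM at 72 h, 0, 3.68 and 0 CPM at 96 h, and 2.98, 3.10 and 0.813 CPM at 120 h AEL, with counts in 7 of 9 libraries. Somatic cells had counts in 2 of 9 libraries, 8 counts (0.280 CPM) in replicate 2 of 96 h and 3 counts (0.197 CPM) in replicate 2 of 120 h. All germ libraries lay above all somatic ones at 72 and 120 h, whereas at 96 h both groups held libraries at 0. Summed over libraries and stages, 634 counts in germ cells stood against 11 in somatic cells, a ratio per library total of 64.5 (exact 95% interval 35.8 to 129.9, for counting error only). At 72 h AEL, 195 counts in germ cells stood against 0 in somatic cells. Set against 3 counts over the somatic group, the ratio was 80.9-fold. This value pools the counts of a group and, like the intervals given here, leaves out the spread between libraries. Of the 195 counts, 105 came from replicate 1, and without it the ratio against 3 counts was 46.3-fold. It was 46.9-fold without somatic 72 h replicate 2, and 134-fold without germ 72 h replicate 2. The ratio was 27.0 (13.2 to 64.4) at 96 h, where all germ counts and all somatic counts came from 1 library each, and was 0 without germ 96 h replicate 3. At 120 h AEL it was 52.3 (17.7 to 255), with all somatic counts from 1 library, and 33.7 to 62.2 with 1 library left out. Over all stages the ratio was 49.7 to 84.0 with 1 library left out, except for 214 without somatic 96 h replicate 2.

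By edgeR *Actbeta* was called higher in germ cells over all stages, with a fitted log2 fold change of 5.93 ± 1.55 (adjusted p = 0.00735) that depends on how zeros are handled. The gene passed the filter on low counts in this fit only through germ libraries, the group where it is high. The p-value is therefore no independent support for the difference. The call was kept in 3 of the 18 fits that leave out 1 library, those without germ 96 h replicate 1, germ 96 h replicate 4 or somatic 96 h replicate 2, and was lost in 15. Without germ 96 h replicate 3, the only germ library of its stage with counts, the log2 fold change was 3.13 (adjusted p = 1.0). In whole ovaries *Actbeta* had 1.67, 1.25 and 1.03 CPM at 72 h, 1.25, 0.747 and 0.487 CPM at 96 h, and 1.26, 1.50 and 1.19 CPM at 120 h AEL. The stages overlapped, and the log2 fold change was 0.00 ± 0.44 at 120 h against 72 h. Of 5 neuron and glia markers, the summed level was 15.9 to 86.7 CPM in germ libraries and 19.6 to 45.5 CPM in somatic libraries. The germ library of 96 h replicate 1 had the sum of 86.7 CPM, of which elav made up 73.4 CPM, with nSyb and repo at 0. It had no *Actbeta* counts. The part of neurons and glia in the *Actbeta* values was not tested.

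*myo* (myoglianin), the fly relative of vertebrate myostatin and GDF11, is known from glia and muscle. In somatic cells it had 96.7, 101 and 136 CPM at 72 h, 199, 163 and 129 CPM at 96 h, and 248, 223 and 321 CPM at 120 h AEL. Every 120 h library was above every earlier one. It rose by a log2 fold change of 1.26 ± 0.20 at 120 h against 72 h AEL (2.39-fold, adjusted p = 0.000559), and stayed called in all 9 fits that leave out 1 library (1.09 to 1.42). At 120 h against 96 h the value was 0.71 ± 0.20 (adjusted p = 0.0332, not called).

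Germ cells had 46.1, 53.8 and 92.3 CPM of *myo* at 72 h, 190.3, 181 and 44.4 CPM at 96 h, and 88.8, 65.0 and 126 CPM at 120 h AEL. The 96 h libraries fell apart into a pair above all other germ libraries and 1 below them all. Germ cells were below somatic cells without overlap at 72 h and at 120 h, with log2 fold changes of -0.80 ± 0.42 and -1.50 ± 0.42 (adjusted p = 0.205 and 0.0232). Over all stages the value was -0.85 ± 0.24 (adjusted p = 0.0111 by edgeR, not called, and 0.00389 by DESeq2). Left without germ 96 h replicate 4, it was -0.70 (adjusted p = 0.00317), and it was also called without germ 72 h replicate 3, germ 96 h replicate 1 or 3, or germ 120 h replicate 4 (-0.97 to -0.93, adjusted p = 0.00588 to 0.00882). In whole ovaries *myo* had 102, 117 and 157 CPM at 72 h, 143, 124 and 129 CPM at 96 h, and 196, 173 and 172 CPM at 120 h AEL. The 120 h libraries lay above the others, and the log2 fold change at 120 h against 72 h was 0.52 ± 0.16 (adjusted p = 0.0351, not called). It was called without replicate 3 of 72 h (0.74, adjusted p = 0.00144).

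*mav* (maverick) encodes a divergent TGF-beta ligand known from glia at the neuromuscular junction. It was the member called in both whole ovaries and somatic cells. Somatic cells had 14.0, 10.8 and 10.7 CPM at 72 h, 18.5, 20.7 and 19.6 CPM at 96 h, and 24.4, 23.0 and 29.4 CPM at 120 h AEL. The stages did not overlap, and the level rose by a log2 fold change of 1.13 ± 0.21 at 120 h against 72 h AEL (2.19-fold, adjusted p = 0.00142). In whole ovaries *mav* had 9.45, 9.36 and 12.5 CPM at 72 h, 16.9, 12.6 and 12.8 CPM at 96 h, and 26.3, 24.9 and 20.9 CPM at 120 h AEL. The stages did not overlap here either, although the gap between 72 and 96 h was small, and the level rose by a log2 fold change of 1.20 ± 0.20 at 120 h against 72 h (2.29-fold, adjusted p = 0.00146). Both calls held in all 9 fits that leave out 1 library.

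Germ cells had 8.02, 3.80 and 4.56 CPM of *mav* at 72 h, 19.0, 17.4 and 8.71 CPM at 96 h, and 11.2, 13.1 and 12.7 CPM at 120 h AEL. They lay below somatic cells without overlap at 72 and 120 h, and overlapped them at 96 h. Over all stages *mav* was lower in germ cells by a log2 fold change of -0.85 ± 0.22 (adjusted p = 0.00516, and 0.0128 without the filter on low counts, not called). This call was kept in 6 of the 18 fits that leave out 1 library and lost in 12, with adjusted p of 0.0111 to 0.0176 and log2 fold changes of -0.88 to -0.78. The libraries whose removal kept it were germ 72 h replicate 1, all 3 germ libraries of 96 h, and somatic 72 h replicates 2 and 3. At 120 h against 72 h the value within germ cells was 1.18 ± 0.58 (adjusted p = 0.812).

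The type I receptor gene *babo* (baboon) had 195, 178 and 192 CPM at 72 h, 266, 225 and 202 CPM at 96 h, and 308, 281 and 407 CPM at 120 h AEL in somatic cells. The stages did not overlap. It rose by a log2 fold change of 0.83 ± 0.16 at 120 h against 72 h AEL (1.78-fold, adjusted p = 0.00207), in all 9 fits that leave out 1 library (0.65 to 0.94). The lowest of these values came without replicate 3 of 120 h, the library with 407 CPM. In germ cells *babo* had 166, 126 and 155 CPM at 72 h, 360.0, 263 and 135 CPM at 96 h, and 183, 179.6 and 178 CPM at 120 h AEL. The 120 h libraries nearly coincided, while those of 96 h spanned the widest range of *babo* in the 9 groups. The log2 fold change of germ over somatic cells was -0.34 ± 0.26 at 72 h, 0.13 ± 0.26 at 96 h and -0.88 ± 0.26 at 120 h AEL (adjusted p = 0.421, 0.766 and 0.0283, none called). At 120 h it was called without germ 96 h replicate 1 or 4 (-0.88 in both, adjusted p = 0.00820 and 0.00165).

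In whole ovaries *babo* had 121, 115 and 186 CPM at 72 h, 134, 98.4 and 96.5 CPM at 96 h, and 187, 167 and 151 CPM at 120 h AEL. Replicate 3 of 72 h was at the level of the 120 h libraries. The log2 fold change was 0.25 ± 0.21 at 120 h against 72 h (adjusted p = 0.388) and 0.62 ± 0.21 at 120 h against 96 h (adjusted p = 0.0524). Neither was called by edgeR, and DESeq2 called the second (adjusted p = 0.00990). The change in whole ovaries was not tested against that in somatic cells, since the tables were scaled separately and the strains differ.

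*Smox*, the Smad that Babo phosphorylates, was called in no comparison by edgeR or DESeq2. Germ cells had 285, 238 and 287 CPM at 72 h, 448, 370.1 and 311 CPM at 96 h, and 269.7, 319 and 285 CPM at 120 h AEL. Somatic cells had 256, 234 and 272 CPM at 72 h, 312, 299 and 287 CPM at 96 h, and 289, 284 and 356 CPM at 120 h AEL. The cell types overlapped at each stage, and the log2 fold change of germ over somatic cells over all stages was 0.11 ± 0.09 (adjusted p = 0.392). In somatic cells at 120 h against 72 h it was 0.30 ± 0.13 (adjusted p = 0.103), with the groups apart. Whole ovaries had 214, 198 and 252 CPM at 72 h, 255, 174 and 196 CPM at 96 h, and 215, 238 and 227 CPM at 120 h AEL, with all stages overlapping. Per kb, the ratio of *babo* to *Smox* averaged 0.487 ± 0.0244, 0.574 ± 0.171 and 0.551 ± 0.0516 in germ cells, and 0.657 ± 0.0278, 0.680 ± 0.0654 and 0.942 ± 0.0690 in somatic cells at 72, 96 and 120 h AEL (SD, n = 3 each). The somatic libraries of 120 h had the highest ratios of the sorted libraries.

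Marker lists also differed between the stages of the somatic libraries, with members in both directions. The summed level of 8 somatic markers was 1970 to 2014 CPM at 72 h, 2226 to 2368 CPM at 96 h and 2666 to 2771 CPM at 120 h AEL. Within it, bab2 (352 to 433, 626 to 807 and 792 to 865 CPM) and Wnt4 (815 to 931, 698 to 872 and 1152 to 1226 CPM) were higher at 120 h than at 72 h, whereas tj was lower (362 to 464, 187 to 407 and 160.1 to 209.9 CPM). The sum of 5 neuron and glia markers was 19.6 to 21.7, 28.3 to 35.0 and 32.5 to 45.5 CPM, most of it elav (16.2 to 18, 25.5 to 33.1 and 31.5 to 44.0 CPM). brp was at most 3.11 CPM and Syt1 was at 0 in 8 of 9 libraries. The germ cell marker sum was 23.3 to 52.9, 14.1 to 33.0 and 13.2 to 18.4 CPM. The part of cell composition in these results was not tested.

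Over all stages, 2 of 6 genes were called between germ and somatic cells, *Actbeta* higher and *mav* lower, against 25.3% of all 11243 genes called (12.7% higher and 12.6% lower), so that this count is near the background. *Actbeta* passed the filter on low counts only through germ libraries, so its call is no independent support for a difference. With 1 library left out, the call of *Actbeta* was lost in 15 of 18 fits and that of *mav* in 12 of 18. DESeq2 called 3 (*myo* in addition, lower) at a background of 36.5%, and no member's groups were apart over all 9 against 9 libraries (7.30% of all genes). At single stages edgeR called 0 of 6, at backgrounds of 4.79% (72 h), 7.47% (96 h) and 7.84% (120 h). At these stages 2, 0 and 3 genes had an unadjusted p under 0.05, and DESeq2 called 2 (*Actbeta* and *mav*), 0 and 3 (*babo*, *myo* and *mav*) at backgrounds of 16.2%, 18.7% and 17.5%. The groups did not overlap for 5 of 6 genes at 72 h, 0 at 96 h and 5 of 6 at 120 h AEL, where 40.7%, 29.3% and 58.7% of all genes did not overlap.

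**Figure D3:**
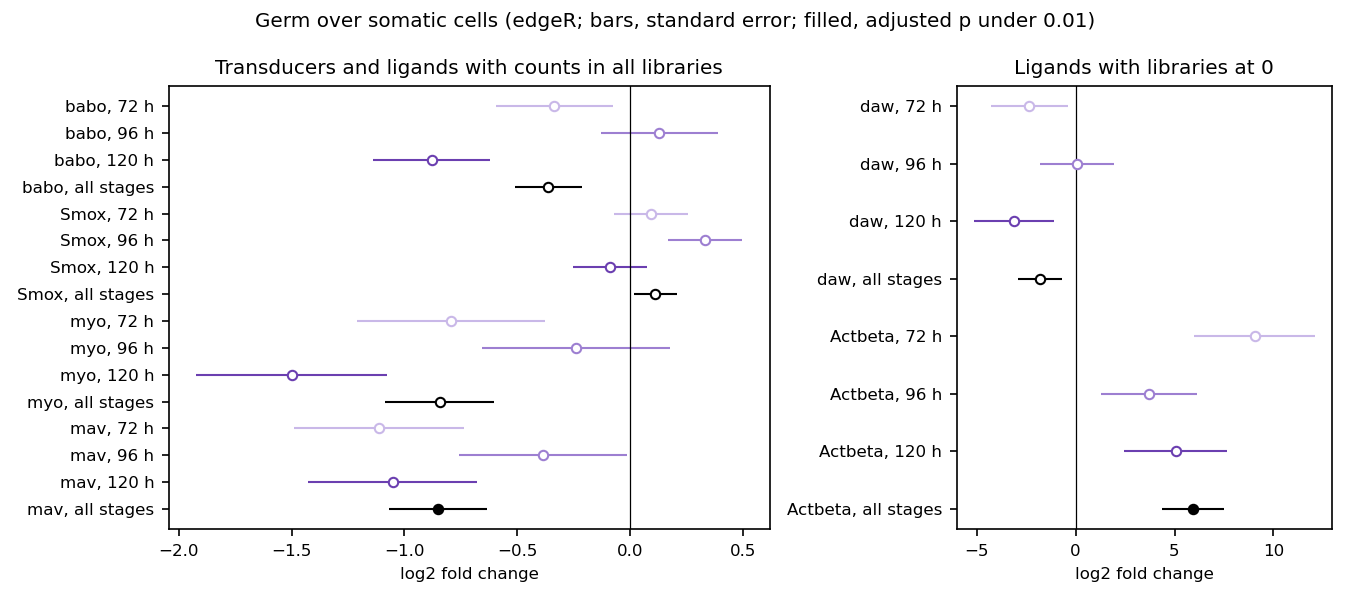
Log2 fold change of germ over somatic cells (horizontal axis) at each stage and over all stages from edgeR; bars are standard errors and filled points have an adjusted p under 0.01. *babo*, *myo* and *mav* lie nearer to 0 at 96 h than at 72 or 120 h, *Smox* lies within 0.33 of 0 throughout, and the errors of *daw* and *Actbeta*, which have libraries at 0, are wider, on a separate axis.

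The germ libraries of a stage differed among themselves in the members and in the somatic markers. At 96 h AEL *babo* stood at 156%, 114% and 58.2% of the somatic mean of the stage in replicates 1, 3 and 4, *myo* at 116%, 111% and 27.1%, and *mav* at 96.7%, 88.5% and 44.4%. Replicate 4 was also the lowest for 5 of the 8 somatic markers: bab1 (104%, 108% and 45.6%, the locus of the somatic driver), bab2 (107%, 58.6% and 18.4%), Wnt4 (34.5%, 28.1% and 12.4%), hh (18.9%, 25.6% and 13.3%) and ap (0.141%, 3.61% and 0%). en was at 0% in replicates 1 and 4. tj was at 42.5%, 18.6% and 19.9%, and tai at 28.7%, 32.6% and 29.0%. At 72 h AEL the marker sum ran from 93.7 CPM in replicate 1 to 717 CPM in replicate 3. In 72 h replicate 1, the germ library with the lowest sum, en was at 0% of the somatic mean, Wnt4 at 0.900%, tj at 1.33%, ap at 1.53%, bab2 at 4.14%, hh at 4.51%, tai at 26.9% and bab1 at 41.1%. The members stood there at 112% (*Smox*), 88.2% (*babo*), 68.0% (*mav*) and 41.4% (*myo*), the last at the level of bab1. This library also had the highest hemocyte marker sum of the sorted libraries, at 112 CPM. The part of RNA from other cells in the germ values was not tested. That library held 7758 counts of *Smox* and 4516 of *babo*. Leaving out both germ libraries with the highest somatic marker sums, a choice made after seeing the data, gave 4 genes called over all stages: *Actbeta* higher, and *daw* (-4.94), *myo* (-1.04) and *mav* (-0.93) lower. For *Actbeta* the limit from the filter on low counts holds here too.

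**Figure D4:**
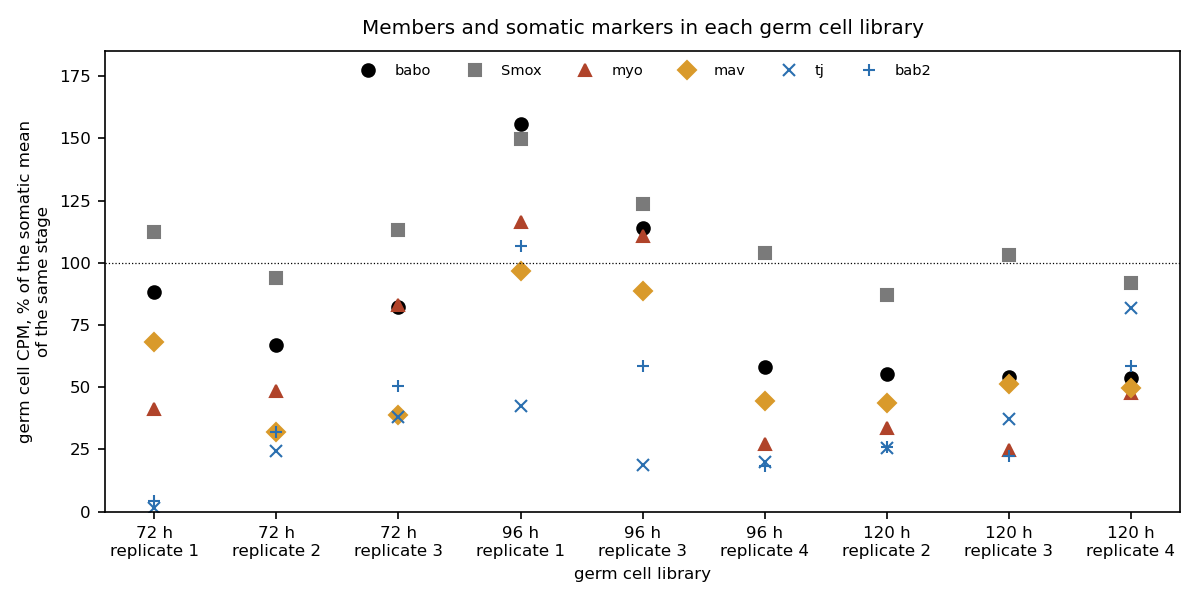
CPM in each germ cell library as a percentage of the mean somatic CPM of the same stage (vertical axis), for *babo*, *Smox*, *myo*, *mav* and the somatic markers *tj* and *bab2*; the dotted line marks 100%. In 72 h replicate 1 both of these markers are at under 5%, with *babo* and *Smox* at 88.2% and 112%, and at 96 h replicates 1 and 3 stand above replicate 4 for every member drawn. Of the somatic markers not drawn, bab1 (41.1%) and tai (26.9%) are higher in 72 h replicate 1, and en, Wnt4, ap and hh are under 5%.

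No member was called by edgeR for a difference between germ and somatic cells in a change between stages, at backgrounds of 0.0356% (72 to 96 h), 0.276% (96 to 120 h) and 0.116% (72 to 120 h). Of the 6 genes, 0, 2 and 0 had an unadjusted p under 0.05, and DESeq2 called 1, 0 and 1 at backgrounds of 3.20%, 4.84% and 2.71%, in both cases *Actbeta*, whose somatic libraries were all at 0 at 72 h. For 96 to 120 h the difference was -1.01 ± 0.37 for *babo* (adjusted p = 0.147) and -1.26 ± 0.59 for *myo* (adjusted p = 0.259). For *babo* it was called without germ 96 h replicate 4 (-1.31, adjusted p = 0.00272).

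Of the other genes of the TGF-beta pathway, 27 were looked up and 25 passed the filter on low counts. In somatic cells at 120 h against 72 h AEL, 6 of 25 rose and 3 fell, and their median log2 fold change was 0.50 against 0.02 for all genes. Of all genes, 11.7% were called higher and 11.3% lower, so that the count of lower ones was near the background. Both type II receptor genes that partner Babo rose: *wit* by 1.89 ± 0.18 (adjusted p = 2.51e-05) and *put* by 0.63 ± 0.16 (adjusted p = 0.00867). *wit* averaged 71.0 ± 6.45 CPM at 72 h, 132 ± 32.1 CPM at 96 h and 262 ± 36.1 CPM at 120 h AEL in somatic cells (SD, n = 3 each). The BMP type I receptor gene *tkv* rose by 2.19 ± 0.19, *plum*, which encodes an immunoglobulin superfamily protein tied to TGF-beta signaling in neurons, by 1.61 ± 0.23, *brk*, a repressor of Dpp target genes, by 2.53 ± 0.32, and *Fur2*, a furin protease gene, by 0.79 ± 0.17. The 3 genes that fell were *Dad*, the inhibitory Smad (-1.05 ± 0.23), *tok*, a Tolloid-type protease that cleaves the prodomain of Daw (-1.75 ± 0.25), and *cv-2*, a BMP-binding protein (-1.75 ± 0.27). *tok* was already lower at 96 h against 72 h (-1.55 ± 0.25, adjusted p = 0.00486). With 1 library left out, the call of *put* was kept in 2 of 9 fits, those without somatic 72 h replicate 3 or 120 h replicate 2 (log2 fold changes of 0.49 to 0.74, adjusted p up to 0.0397). Those of *Dad* and *Fur2* were each kept in 5 of 9, with every loss coming from a 72 or 120 h library, and that of *tok* at 96 h against 72 h in 4 of 9. The calls of *wit*, *tkv*, *plum*, *brk*, *cv-2* and of *tok* at 120 h against 72 h were kept in 9 of 9.

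In whole ovaries at 120 h against 72 h AEL, 6 of 25 rose and 4 fell, with a median log2 fold change of 0.49 against -0.05 for all genes. Of all genes, 8.39% were called higher and 13.5% lower, and the count of lower ones was again near the background. *wit* rose by 1.20 ± 0.14, *tkv* by 2.29 ± 0.20, *sog*, an extracellular BMP inhibitor, by 3.05 ± 0.31, *brk* by 2.98 ± 0.26, *cv* by 0.69 ± 0.13, and *Fs* by 1.55 ± 0.32. *Fs* encodes follistatin, a secreted inhibitor that binds Activin-type ligands. *tok* (-2.18 ± 0.34), the BMP ligand gene *dpp* (-1.59 ± 0.34), *Dad* (-1.51 ± 0.25) and *Fur1* (-0.82 ± 0.13), which encodes a furin protease, fell. *tok* thus fell alongside *daw*. It averaged 215 ± 41.8 CPM at 72 h, 62.4 ± 34.2 CPM at 96 h and 47.4 ± 3.83 CPM at 120 h AEL, and its whole ovary mean was 2.95, 3.44 and 1.59 times the higher sorted mean at these stages, with the tables scaled separately. Strain and dissociation differed between whole ovaries and sorted cells here too. The calls of *Fs* and *dpp* were kept in 3 of 9 fits, those without a 96 h library, and that of *cv* in 6 of 9, all but those without 72 h replicate 2 or 120 h replicate 1 or 2.

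Between germ and somatic cells over all stages, 13 of 25 were lower in germ cells and 1 was higher, and the median log2 fold change was -0.98 against 0.02 for all genes, of which 12.6% were called lower and 12.7% higher. The higher gene was *tok* (1.21 ± 0.29). Those lower included the glypican genes *dlp* (-1.33 ± 0.13) and *dally* (-1.80 ± 0.41), which encode cell surface co-receptors, the BMP ligand gene *gbb* (-1.45 ± 0.29), *tkv* (-0.90 ± 0.16) and *EcR* (-1.62 ± 0.35), the ecdysone receptor gene, whose expression depends on Babo in other fly tissues. The partner receptor genes parted in the germ library with the lowest somatic marker sum (72 h replicate 1): *put* had 140.0 CPM there, while *wit* had 0.0368 CPM. In the other germ libraries *wit* ranged from 9.73 to 118 CPM. *Fs* was likewise at 0.123 CPM in that library, against 2.7 to 73.1 CPM in the other germ libraries.

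**Figure D5:**
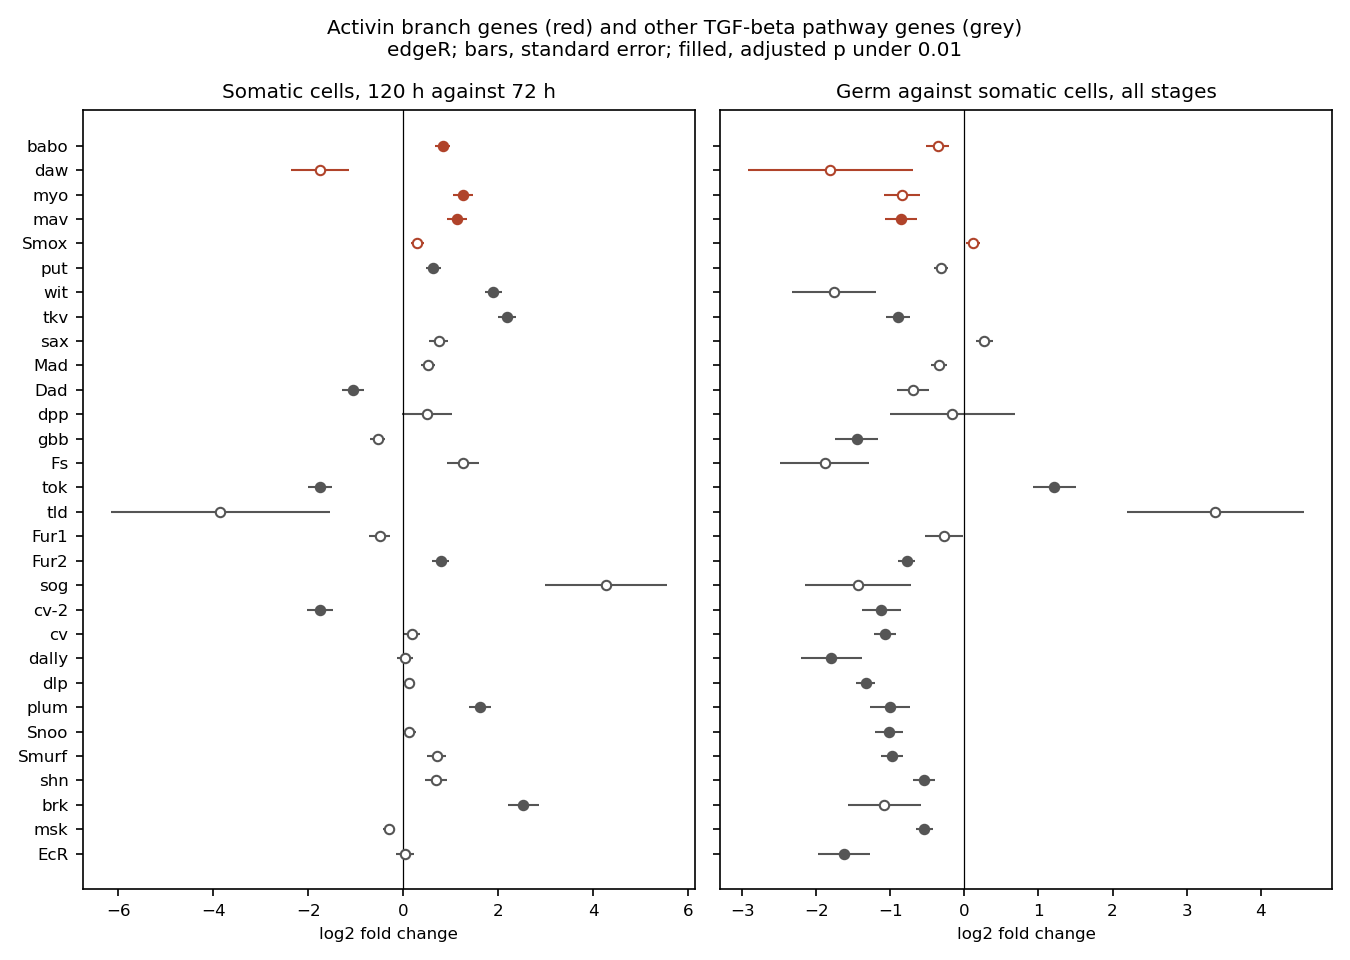
Log2 fold change (horizontal axis) of the Activin branch genes (red) and of the other TGF-beta pathway genes (grey) in somatic cells at 120 h against 72 h AEL (left) and in germ against somatic cells over all stages (right); bars are standard errors and filled points have an adjusted p under 0.01. On the left *wit*, *tkv* and *brk* lie to the right of *babo*, and on the right most filled points are below 0 while *Smox* lies at 0.11 (*Actbeta* is not drawn).

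The genes with the most similar pattern were sought by Pearson's r of log2 CPM over the 18 sorted libraries among 7292 genes with a mean of at least 5 CPM. The points share 2 cell types and 3 stages, so r describes these libraries only. For *babo* they were *fs(1)h* (0.96), *CG2186* (0.96) and *Sema1a* (0.95), and for *Smox* *tea* (0.92), *CG17162* (0.91) and *Usf* (0.91). For *myo* they were *uex* (0.98), *AGO1* (0.97) and *Atf6* (0.97), and for *mav* *Ddr* (0.93), *Chc* (0.92) and *Gp210* (0.91). For *daw* they were *Rgl* (0.92), *CG2065* (0.92) and *Nrg* (0.88), and for *Actbeta* *asRNA:CR45485* (0.92), *CG2921* (0.88) and *FLASH* (0.87). The values for *daw* and *Actbeta* rest on libraries with few or no counts.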

How the data were processed

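RNA-seq of poly(A)-selected, single-end 50-base libraries was used from 9 whole ovary, 9 germ cell and 9 somatic cell samples. Per the labels and methods, the authors used bcl2fastq 2.2, STAR 2.7.6a and RSEM 1.3.3 on the FlyBase genome and summed runs of a sample, and they deposited expected counts per gene, not normalized. RSEM divides reads that map to several genes. Here expected counts were rounded to whole numbers, and differences were computed in R 4.3.3 by edgeR 4.0.16, with limma 3.58.1: filterByExpr (at least 10 counts, 15 in total), TMM, robust quasi-likelihood fit. Whole ovaries, germ cells and somatic cells were fitted separately between stages and the 18 sorted libraries together between cell types. Alternatives were DESeq2 1.42.0, RLE size factors, no filter, each library left out, and replicate number as a block. With 3 libraries a group, a permutation test of a single gene cannot go below 0.1. The tests were tried on simulated data. Gene positions and merged exon lengths came from Ensembl release 115. All 6 members are described in every group. Other pathway genes could be named when called between stages or between cell types over all stages, and not all of those called are named. *put* and *wit* in a single germ library, and *Fs* there, were singled out after their values were seen. The identifier of Medea was not matched and that gene is not analysed here. A long form of the count tables was not used here. Members and lists were chosen with earlier results of these data known. Replicate numbers name biological replicates. The p-values set the difference between groups against the spread between replicates, which is estimated over all groups of a fit and with information shared across genes.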

Additional observations from a re-analysis of the deposited data

How the results depend on the processing

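DESeq2 called 3 members in whole ovaries at 120 h against 96 h, 1 in somatic cells at 120 h against 96 h, 2 between germ and somatic cells at 72 h and 3 at 120 h, and 1 for the difference in the change from 72 to 96 h and from 72 to 120 h, where edgeR called 0 in each. Between germ and somatic cells over all stages, edgeR called 2 members, 1 without the filter on low counts (*mav* lost, adjusted p = 0.0128) and 4 without both germ libraries of highest somatic marker sum, an alternative chosen after seeing the data. RLE size factors moved no count of members. With 1 library left out, the counts ranged from 0 to 5 there (5 without germ 96 h replicate 1), from 0 to 3 in whole ovaries at 120 h against 96 h (3 without 72 h replicate 3, and 1, *daw*, without 96 h replicate 1), from 1 to 3 at 120 h against 72 h, from 0 to 1 in germ cells at 96 h against 72 h (*babo*, without 96 h replicate 4), from 0 to 2 between cell types at 120 h, and from 0 to 1 for the difference in the change from 96 to 120 h. All other counts stayed at their value. The 1 value that turned round was the log2 fold change of *dpp* between germ and somatic cells at 96 h, which ran from -8.74 to 2.09 with 1 library left out. The lowest value came without germ 96 h replicate 3, the only germ library of its stage with *dpp* counts. Libraries at or near 0 counts limit *Actbeta* and *daw*, and the causes of these shifts were not tested.

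With the replicate block, 1 member was called in whole ovaries at 120 h against 96 h (*daw*, -2.47) and 0 between germ and somatic cells over all stages (*mav*, adjusted p = 0.0235, and *Actbeta*, 0.0136), and no other count of members changed. Deviations of same-numbered libraries correlated by -0.19 to 0.30 in whole ovaries, -0.051 to 0.072 in somatic and -0.17 to 0.031 in germ cells. For differently numbered libraries the ranges were -0.33 to 0.27, -0.077 to 0.095 and -0.18 to 0.17. The ranges overlapped, so that the numbers showed no clear pairing, but so few libraries cannot exclude 1.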
